A study of Mus musculus with 10 samples.

Results

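Glycolysis and the hypoxia response were examined through 35 genes in MEFs, fibroblasts taken from mouse embryos and kept in culture for a few passages. The 35 genes were fixed by name: 17 glycolytic enzymes, 4 transporters, 3 enzymes of flux control, 4 genes of oxygen sensing and 7 other targets of the hypoxia-inducible factors (HIF). All 35 were found among the 52550 genes of the deposited table, and all 35 had enough reads to be among the 16602 genes tested. Of these, 34 had a row under their own symbol. Aldoa was listed as 2 rows, and the row used was that of ENSMUSG00000030695, since the other row held almost no reads.

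RNA was sequenced from 5 female and 5 male libraries. Both groups were C57BL/6 MEFs from embryonic day 14, used at passage 3. No transgene, deletion or treatment is named for either group, and no low-oxygen culture. Total RNA was depleted of ribosomal RNA before directional libraries were made, so that unspliced transcripts were sequenced with mature mRNA. Whether the 5 libraries of each sex are independent embryos or dishes is not stated, so that p-values measure the spread between these libraries, which may be technical.

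Glycolysis splits glucose into pyruvate in 10 enzyme steps, and lactate dehydrogenase turns pyruvate into lactate. Most steps can be run by several isozymes, encoded by separate genes and used to different degrees by different tissues. In oxygen, prolyl hydroxylases mark the HIF alpha subunits for destruction; when oxygen is short, HIF alpha accumulates and binds a core motif in the DNA of its target genes, among them most glycolytic enzymes, glucose and lactate transporters and Vegfa.

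Depth was 30662616 to 45859721 unique gene reads a library (reads that matched 1 gene only). Xist lay at 17.3 to 25.7 CPM (unique gene reads scaled to a common library size) in female libraries and at 0 to 0.0579 CPM in male libraries, and Ddx3y at 0 to 0.463 CPM and 54.7 to 68.1 CPM, so that every library matched its labelled sex. Several fibroblast genes were abundant: Fn1 averaged 9663 ± 1088 and 10360.1 ± 1056 CPM, Col1a1 6901 ± 859 and 6788 ± 716 CPM and Vim 4697 ± 393 and 4790.3 ± 304 CPM in female and male libraries (SD, n = 5 each). Others in the fibroblast list were much lower: Pdgfra averaged 67.9 and 60.2 CPM, Dcn 38.3 and 32.4 CPM and Lum 4.04 and 3.53 CPM. These means were below those of Nes in the neural list, at 129 and 122 CPM. Of the defining markers of other cell types, Hba-a1 and Hbb-bt had 0 reads, Myod1 and Myog had at most 5 reads in any library, and Epcam averaged 0.190 and 0.222 CPM. Other genes of these lists were read in every library: the summed skeletal muscle markers, mainly Des and Eno3, ran from 102 to 149.7 CPM in female libraries and from 109 to 155 CPM in male libraries, the neural markers, mainly Nes, from 106 to 171 and from 108 to 168 CPM, and the macrophage markers from 35.2 to 89.7 and from 42.2 to 65.5 CPM. The epithelial markers, mainly Krt18, summed to 9.95 to 13.4 CPM in female libraries and 6.85 to 10.7 CPM in male libraries. The enzymes of glycolysis together took 0.584 to 0.631% of total gene reads in female libraries and 0.583 to 0.669% in male libraries.

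Glycolytic enzymes ranked highest per length of transcript. Levels are total exon reads per kilobase of annotated exon, scaled to library size like CPM, so that genes of different length can be compared; values run from replicate 1 to replicate 5. Pkm, pyruvate kinase, led with 336, 351, 313, 348 and 309 in female libraries, against 313, 355, 335, 387 and 319.7 in male libraries. Eno1, the enolase, had 247, 249, 216, 249 and 239 in female libraries, against 226, 253, 225, 277 and 222 in male libraries. The sexes overlapped in both genes. Pgam1 (phosphoglycerate mutase, 213 ± 18.9 and 215 ± 18.9), Aldoa (186 ± 15.4 and 181 ± 19.0), Pgk1 (phosphoglycerate kinase, 168 ± 12.5 and 168 ± 10.6), Ldha (132 ± 10.2 and 129 ± 8.97), Gapdh (114 ± 7.38 and 115 ± 10.1) and Tpi1 (triose phosphate isomerase, 101 ± 8.46 and 97.7 ± 8.94) followed (mean level ± SD, n = 5, female and male libraries). The libraries of neighbours in this order overlapped, except between Pkm and Eno1 and between Pgk1 and Ldha. Gpi1, which turns glucose 6-phosphate into fructose 6-phosphate, lay at 42.0 ± 2.66 and 42.4 ± 2.97. By this measure these 9 genes are the 9 highest of the 35. The order below Pkm depended on the reads counted. In unique gene reads Aldoa (723 and 706 CPM) and Ldha (456 and 445 CPM) had higher means than Eno1 (405 and 407 CPM) in female and male libraries. The annotated exon length is 5379 bases for Eno1, 3501 bases for Aldoa and 3310 bases for Ldha.

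**Figure D1:**
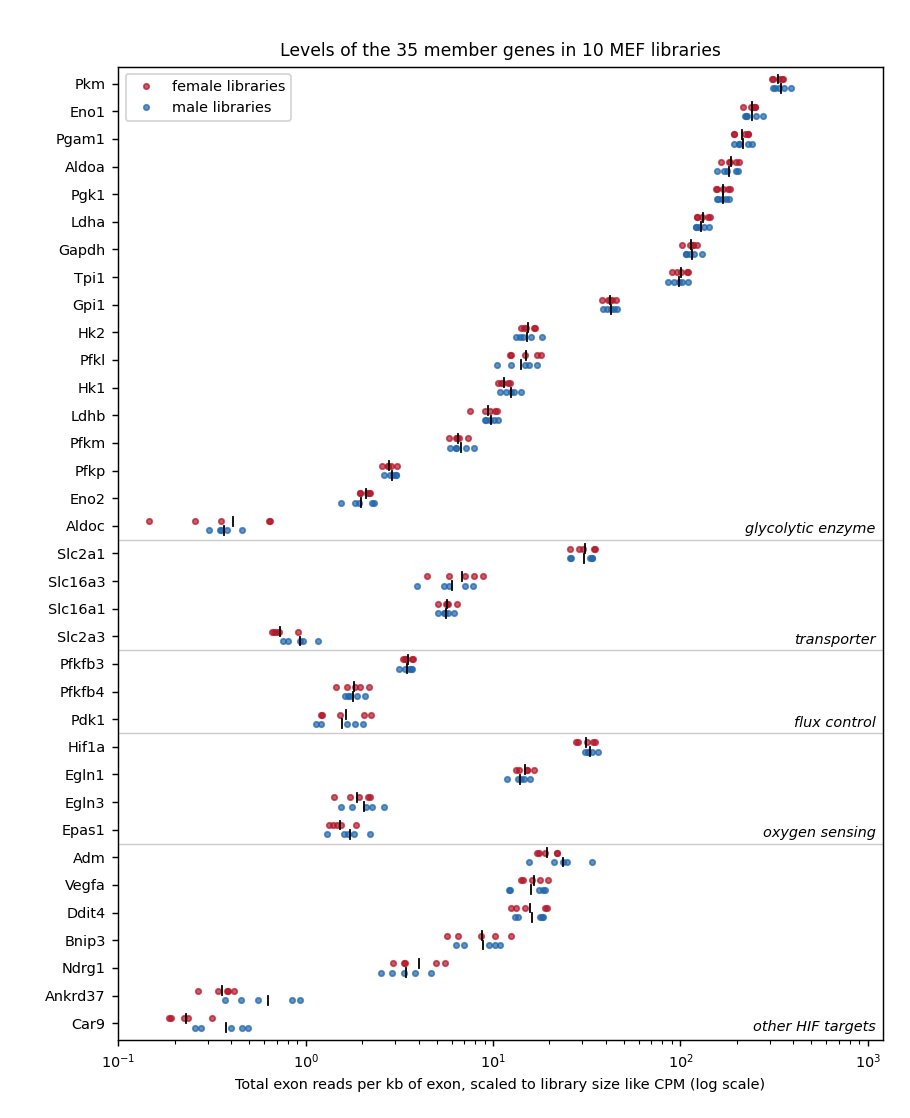
Total exon reads per kilobase of exon, scaled like CPM (log axis) for the 35 genes by role, with 1 point a library (female above, male below) and the mean as a black bar. Levels span from 337 for Pkm to 0.303 for Car9 as means of 10 libraries, and the points of the sexes overlap in every row.

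The entry steps were split between isozymes. Hexokinase traps glucose in the cell. Both Hk1 and Hk2 are counted among the HIF targets below. Hk2, a HIF-responsive form, had levels of 16.7, 15.1, 14.1, 16.6 and 14.6 in female libraries, against 13.9, 15.9, 13.2, 18.3 and 14.5 in male libraries. Hk1, the form found in most tissues, had 11.3, 12.2, 11, 12 and 10.7 in female libraries, against 10.9, 13, 11.7, 14.1 and 12.4 in male libraries. Hk2 thus held 57.3 ± 1.73% of the family in female libraries and 55.0 ± 1.44% in male libraries (two-sided exact permutation test, p = 0.0556, adjusted p = 0.524 over 10 families). The order of the 2 genes depended on how reads were counted: among reads that cross exon junctions Hk2 held 38.3% over the 10 libraries, and Hk1 led. The annotated exon length is 5969 bases for Hk2 and 8532 bases for Hk1.

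Phosphofructokinase, the committed step, drew on 3 genes. Pfkl, the liver-type subunit, had levels of 18, 17.2, 12.4, 14.8 and 12.5 in female libraries, against 14.8, 15.5, 12.4, 17.2 and 10.5 in male libraries. Pfkm, the muscle-type subunit, had 6.57, 7.32, 6.42, 6.37 and 5.85 in female libraries, against 6.33, 7.13, 6.36, 7.91 and 5.91 in male libraries. Pfkp, the platelet-type subunit, had 3.06, 2.86, 2.55, 2.76 and 2.75 in female libraries, against 2.91, 3.05, 2.62, 3.03 and 2.83 in male libraries. Pfkl held the largest share in both sexes, at 61.4 ± 2.89% in female libraries and 59.2 ± 2.88% in male libraries (exact permutation adjusted p = 0.524). Over the 10 libraries Pfkm held 27.7% and Pfkp 12%. By junction reads Pfkl led with 54.1%, and Pfkp, whose annotated exons span 13401 bases, held 29.4% and Pfkm 16.5%.

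Aldolase, enolase and lactate dehydrogenase each rested mainly on 1 isozyme. Aldoa, the muscle-type aldolase, had levels of 197, 204, 164, 182 and 184 in female libraries, against 177, 197, 157, 204 and 171 in male libraries. It held 99.8 ± 0.105% and 99.8 ± 0.0385% of the pair with Aldoc, the brain-type form. Eno1 held 99.1 ± 0.0550% in female libraries and 99.2 ± 0.172% in male libraries of the pair with Eno2, the neuronal form. The muscle form Eno3 is not among the 35 genes but lay above Eno2 per length, at a mean level of 15.7 in female libraries and 19.3 in male libraries, against 2.09 and 1.97 for Eno2. Ldha, the lactate dehydrogenase subunit that HIF raises, had levels of 144, 140.0, 122, 130.3 and 122 in female libraries, against 121, 134, 121, 142 and 126 in male libraries. Ldha held 93.4 ± 0.589% and 93 ± 0.224% of the pair with Ldhb, the form abundant in heart. Ldhb itself stood at 9.38 ± 1.18 and 9.72 ± 0.653.

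Among the transporters, Slc2a1 far exceeded Slc2a3, whereas the lactate carriers lay close together. Slc2a1 encodes GLUT1, the basal glucose transporter, and had levels of 34.6, 34.9, 25.9, 30 and 28.8 in female libraries, against 33.1, 33.5, 25.7, 33.9 and 26.1 in male libraries. It held 97.7 ± 0.430% of the pair with Slc2a3 (GLUT3) in female libraries and 97 ± 0.889% in male libraries. Other glucose transporters outside the 35 genes lay above Slc2a3 but below Slc2a1, such as Slc2a10 at a mean level of 2.43 and 2.47 and Slc2a8 at 1.11 and 1.16. Slc16a3 encodes MCT4, the lactate exporter, and had 7.92, 8.83, 4.43, 5.83 and 7.06 in female libraries, against 7.79, 5.84, 3.91, 7.04 and 5.45 in male libraries. Slc16a1 encodes MCT1, which carries lactate in either direction, and had 5.66, 6.38, 5.07, 5.71 and 5.61 in female libraries, against 5.09, 5.49, 5.76, 5.53 and 6.15 in male libraries. Slc16a3 was the more variable of the 2 between libraries, and its share of the pair ran from 40.4 to 60.5%. The mean share was 53.8 ± 5.11% in female libraries and 51.1 ± 7.79% in male libraries, and 67.3% over the 10 libraries by junction reads.

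In flux control and oxygen sensing, Pfkfb3 and Pfkfb4 set the level of fructose 2,6-bisphosphate, the activator of phosphofructokinase. Pfkfb3 had levels of 3.74, 3.69, 3.38, 3.32 and 3.43 in female libraries, against 3.71, 3.65, 3.16, 3.54 and 3.37 in male libraries. Pfkfb4 had 2.18, 1.96, 1.44, 1.65 and 1.83 in female libraries, against 1.72, 2.08, 1.68, 1.87 and 1.62 in male libraries. Pfkfb3 thus held 66.1 ± 2.53% and 66.1 ± 1.83% of the pair in female and male libraries. Pfkfb2, outside the 35 genes, lay close to Pfkfb4, at a mean level of 1.67 and 1.53, against 1.81 and 1.79. Hif1a, the alpha subunit found in most cells, had 34.2, 31.6, 28.5, 34.9 and 27.7 in female libraries, against 33.7, 32.2, 31.1, 36.1 and 32.2 in male libraries. It held 95.4 ± 0.561% and 95.1 ± 0.726% of the pair with Epas1, the alpha subunit also called HIF-2 alpha. Egln1, the main prolyl hydroxylase of normal oxygen, had 15.2, 16.5, 13.7, 13.3 and 15.1 in female libraries, against 13.5, 15.7, 14.1, 14.6 and 11.8 in male libraries. Egln3, a hydroxylase that is itself a HIF target, had 1.93, 2.20, 1.42, 1.72 and 2.14 in female libraries, against 2.25, 2.61, 1.77, 2.10 and 1.54 in male libraries, and Egln1 held 88.7 ± 1.14% and 87.2 ± 1.45% of the pair. Egln2, the remaining HIF prolyl hydroxylase, is not among the 35 genes and lay between them, at a mean level of 11.7 in female libraries and 11.2 in male libraries, so that these shares are of the pair and not of the family.

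**Figure D2:**
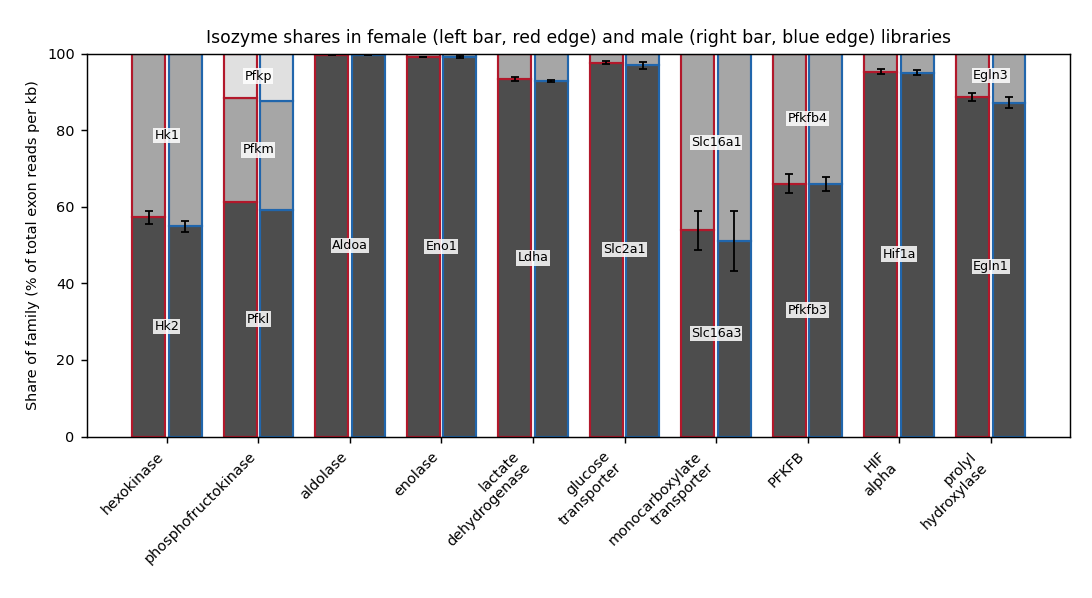
Mean share of each isozyme in its family (% of total exon reads per kilobase) in 5 female libraries (left bar, red edge) and 5 male libraries (right bar, blue edge), with the SD of the leading isozyme for families of 2. Aldoa, Eno1, Ldha, Slc2a1 and Hif1a hold over 90% of their pairs, whereas hexokinase, phosphofructokinase and the monocarboxylate transporters are shared.

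In 0 of the 10 families did the share of the leading isozyme pass the test between the sexes (two-sided exact permutation tests, smallest adjusted p = 0.524). The unadjusted p nearest to the threshold was that of hexokinase, given above. With 5 libraries a sex the smallest p an exact test allows is 0.00794, before adjustment over the 10 families. A difference in 1 family alone could therefore not pass an adjusted p of 0.05, however complete. The tests cannot show that the shares are alike in the sexes.

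The other HIF targets spanned a wide range of levels. Adm, the vasodilator peptide adrenomedullin, had a mean level of 19.5 ± 2.28 in female libraries and 23.7 ± 6.53 in male libraries. Vegfa, the endothelial growth factor, had 16.4 ± 2.40 and 15.9 ± 3.36, Ddit4, an inhibitor of mTORC1 signalling, 15.8 ± 3.23 and 16.2 ± 2.69, and Bnip3, a mitophagy receptor, 8.68 ± 2.74 and 8.80 ± 2.02. Ndrg1, a stress-responsive gene, had 4.03 ± 1.14 and 3.44 ± 0.826. Ankrd37 (0.356 ± 0.0573 and 0.629 ± 0.244) and Car9, a carbonic anhydrase of the cell surface (0.231 ± 0.0514 and 0.375 ± 0.106), were near the bottom of the table. Pdk1, which keeps pyruvate out of mitochondria by inhibiting pyruvate dehydrogenase, lay at 1.65 ± 0.474 and 1.57 ± 0.386. The place of Adm depended on the reads counted, since 28.1% of its gene reads were unique. In unique gene reads Adm averaged 10.7 and 13.1 CPM in female and male libraries. Vegfa had 98.2 and 94.5 CPM and Ddit4 34.05 and 34.97 CPM. The annotated exon length is 1619 bases for Adm, 4285 bases for Vegfa and 1755 bases for Ddit4.

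HIF binds DNA at a core of 5 letters, written ACGTG or GCGTG on either strand. RefSeq entries for promoters (build GRCm38.p6) were matched for 32 of the 35 genes, and none was found for Ndrg1, Epas1 or Slc2a3. The 250 bases before the start held a core in 25 of the 32 members (78.1%), in 17 of the 20 matched HIF targets (85%), in 8 of the 12 other members (66.7%) and in 12678 of all 32841 promoters (38.6%). At least 2 matches, counted on both strands so that CACGTG holds 2, were found in 50% of the HIF targets, in 50% of the other members and in 16.7% of all promoters. The stretches below are those of 4 targets from the closest pairs between libraries (Pdk1, Ddit4, Vegfa, Bnip3), of Adm, which had a negative correlation with most of the others, and of Ankrd37, which had the smallest p between the sexes. Each runs 5′ to 3′ towards the RefSeq start, with core matches in capitals, and holds no base of an annotated exon of its gene. For Ankrd37 that start lies inside the annotated gene, which reaches upstream to position 46005707 on chromosome 8, so that the stretch is not the one before its first annotated exon. The stretches are chr2:71872974-71873223 on the plus strand for Pdk1, chr10:59951835-59952020 on the minus strand for Ddit4, chr17:46032378-46032627 on the minus strand for Vegfa, chr7:138909520-138909756 on the minus strand for Bnip3, chr7:110627407-110627656 on the plus strand for Adm and chr8:45999868-46000100 on the minus strand for Ankrd37.
Pdk1: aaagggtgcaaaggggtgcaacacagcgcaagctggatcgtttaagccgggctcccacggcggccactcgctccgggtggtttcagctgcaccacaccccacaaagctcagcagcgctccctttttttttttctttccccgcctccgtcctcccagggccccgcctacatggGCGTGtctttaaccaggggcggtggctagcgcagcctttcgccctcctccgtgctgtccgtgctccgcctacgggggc
Ddit4: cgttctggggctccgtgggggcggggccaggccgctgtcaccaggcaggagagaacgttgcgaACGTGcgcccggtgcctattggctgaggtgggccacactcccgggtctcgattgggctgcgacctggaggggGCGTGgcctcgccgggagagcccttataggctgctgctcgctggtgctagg
Vegfa: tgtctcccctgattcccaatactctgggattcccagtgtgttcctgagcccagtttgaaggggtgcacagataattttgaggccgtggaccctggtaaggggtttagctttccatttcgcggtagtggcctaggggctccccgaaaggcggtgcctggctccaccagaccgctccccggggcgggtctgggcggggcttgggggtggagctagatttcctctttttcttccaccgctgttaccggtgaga
Bnip3: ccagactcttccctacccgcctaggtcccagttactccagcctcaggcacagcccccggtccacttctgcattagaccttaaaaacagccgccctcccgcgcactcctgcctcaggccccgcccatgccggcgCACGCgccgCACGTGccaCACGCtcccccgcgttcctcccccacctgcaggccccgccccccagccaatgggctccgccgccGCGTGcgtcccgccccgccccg
Adm: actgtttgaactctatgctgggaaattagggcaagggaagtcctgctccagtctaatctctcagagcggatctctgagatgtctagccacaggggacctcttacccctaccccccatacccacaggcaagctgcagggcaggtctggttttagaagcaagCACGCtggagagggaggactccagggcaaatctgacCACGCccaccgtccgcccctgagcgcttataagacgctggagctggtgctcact
Ankrd37: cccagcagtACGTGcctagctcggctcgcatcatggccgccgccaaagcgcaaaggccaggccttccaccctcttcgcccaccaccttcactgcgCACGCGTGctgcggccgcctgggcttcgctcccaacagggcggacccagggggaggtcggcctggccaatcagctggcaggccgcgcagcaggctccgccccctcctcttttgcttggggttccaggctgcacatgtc

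Counted in the same way, Bnip3 had 5 matches, Ankrd37 had 3 in the printed stretch and 4 in the full window, Ddit4 and Adm had 2 each and Pdk1 had 1. The Vegfa stretch held none, which says only that these letters are not in this window. A match in these stretches is a description of the letters and was not tested as a binding site.

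Many HIF targets went up and down together between libraries, in both sexes. On the log2 scale of CPM from unique gene reads (pseudocount 0.5), the 231 pairs among the 22 HIF targets of the 35 genes, enzymes and transporters included, had a median Pearson r of 0.44 over the 10 libraries. Of these pairs 161 had a positive r. Over all 137804901 pairs of tested genes the median r was 0.00, and over the pairs of genes with at least 10 CPM it was 0.01. Of the 231 pairs, 21 (9.09%) passed an adjusted p of 0.05 (permutation test with 100000 resamples, adjusted over the 231 pairs), 17 with a positive and 4 with a negative r. An r as large as the smallest among them, 0.805 in absolute value, was found in 1.35% of all pairs of tested genes and in 2.5% of pairs with at least 10 CPM. Among the 18 targets with at least 10 CPM the median r was 0.55 over 153 pairs. The pairs share libraries and genes and are not independent.

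Pdk1 and Ddit4 were the closest pair. Pdk1 had 22.6, 20.5, 12, 15.5 and 12.5 CPM in female libraries, against 20.4, 16.8, 11.6, 18 and 12.5 CPM in male libraries. Ddit4 had 40.9, 41.5, 27.3, 31.8 and 28.7 CPM in female libraries, against 39.9, 39.7, 28.4, 37.3 and 29.6 CPM in male libraries. Both were highest in female replicates 1 and 2 and male replicate 1 (Ddit4 also in male replicate 2), and replicates 3 and 5 of each sex were the 4 lowest libraries. Their r was 0.957 and Spearman's rho 0.964 (permutation p = 0.000140 and 7.00e-05, adjusted p = 0.0218 and 0.0162). Without the 2 libraries farthest from the median of Pdk1 the r was 0.955. Within the sexes it was 0.985 over the female libraries and 0.954 over the male libraries.

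Vegfa, Bnip3 and Pfkl shared their 4 lowest libraries with this pair, although the order of the others differed. Vegfa had 119, 105, 86.0, 94.8 and 85.5 CPM in female libraries, against 111, 111, 73.5, 101 and 76.0 CPM in male libraries. Bnip3 had 15.1, 12.7, 8.45, 11.7 and 9.22 CPM in female libraries, against 16.9, 14.2, 8.54, 11.9 and 9.76 CPM in male libraries. In Pfkl the female libraries had 110.1, 105, 76.6, 89.4 and 77.3 CPM, against 90.6, 94.2, 75.4, 102 and 67.1 CPM in male libraries. The 4 lowest were replicates 3 and 5 of each sex, whereas the highest was female replicate 1 for Vegfa and Pfkl and male replicate 1 for Bnip3. Pdk1 and Vegfa had r = 0.930 and rho = 0.891 (0.891 without the 2 libraries farthest from the median), and Bnip3 and Ddit4 had r = 0.920 and rho = 0.915 (0.925 without 2). Pdk1 and Bnip3 had r = 0.919 and rho = 0.903 (0.888 without 2), Pfkl and Pdk1 had r = 0.911 and rho = 0.891 (0.910 without 2), and Vegfa and Bnip3 had r = 0.909 and rho = 0.903 (0.940 without 2). Each of these 5 pairs had an adjusted permutation p of 0.0218 for r and 0.0350 for rho. Centred on the mean of each sex, the r of the 6 closest pairs was 0.918 to 0.972, and all but Pfkl and Pdk1 (adjusted permutation p = 0.0568) stayed past the threshold.

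The call was lost without either of 2 libraries. Without female replicate 1 or without female replicate 4, 0 of the 231 pairs passed (exact permutation test over 9 libraries, adjusted p = 0.0671 for the pair of Pdk1 and Ddit4 without replicate 1), although over the 10 ways of leaving out a library the r of the 6 closest pairs stayed between 0.883 and 0.983. With the other libraries left out in turn, 11 to 34 pairs passed. The count was 34 with total gene reads, 52 with unique exon reads and 8 when centred on sex. All 21 pairs kept their sign without the 2 libraries farthest from the median, when centred on sex and within each sex.

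**Figure D3:**
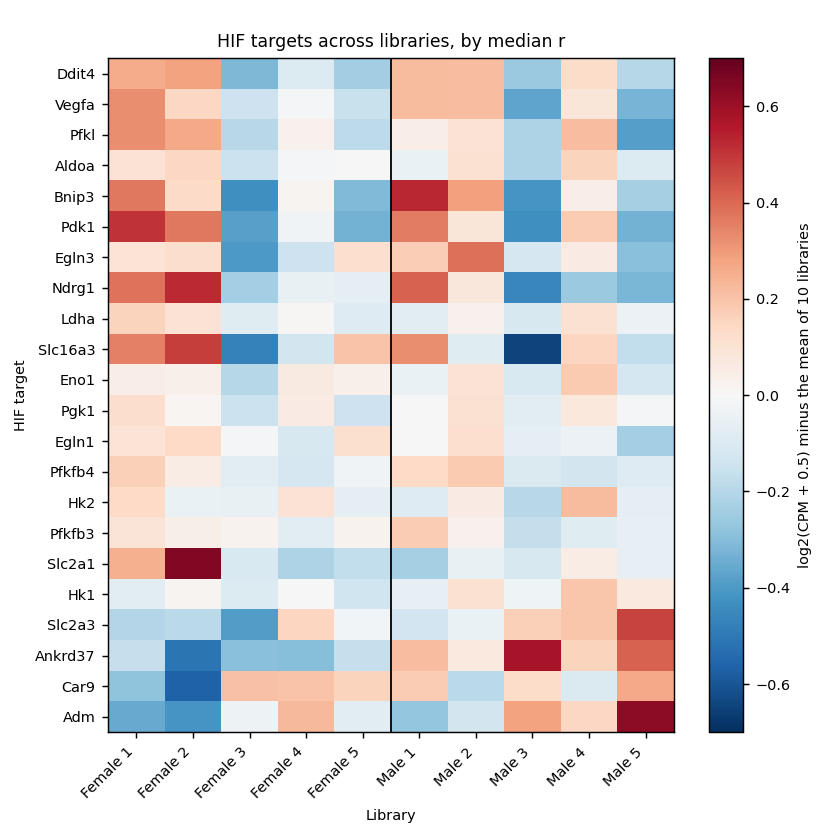
Deviation of log2(CPM + 0.5) from the mean of 10 libraries for the 22 HIF targets (rows, ordered by their median r with the other 21) in 5 female and 5 male libraries (columns). Of the 18 upper rows, 17 are above the mean in female replicates 1 and 2, 11 in male replicate 1 and 16 in male replicate 2. In male replicate 4 there are 14, and in female replicates 4 and 5 there are 7 and 6. Female replicate 3 and male replicates 3 and 5 have 1 or 0. Of the 4 bottom rows (Slc2a3, Ankrd37, Car9 and Adm), 0 are above the mean in female replicates 1 and 2 and 4 in male replicates 3 and 5. Replicate 4 of each sex has 3 of these 4 rows above it.

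Not all targets took part. Adm had a negative r with 17 of the 21 others (median r = -0.59), Car9 with 18 (-0.57), Ankrd37 with 17 (-0.31) and Slc2a3 with 14 (-0.23). Adm had 8.96, 8.59, 11.3, 13.6 and 11 CPM in female libraries, against 9.52, 10.6, 14.2, 12.8 and 18.2 CPM in male libraries. Male replicate 5 was highest in Adm and low in Pdk1, and female replicates 1 and 2 were lowest in Adm and highest in Pdk1. Adm and Egln1 had r = -0.897 and rho = -0.891 (-0.744 without the 2 libraries farthest from the median; adjusted permutation p = 0.0218 and 0.0350). Adm and Ndrg1 had r = -0.849 and rho = -0.903 (-0.775 without 2; adjusted permutation p = 0.0315 and 0.0350). Adm and Slc2a3 had r = 0.845 and rho = 0.770 (0.977 without 2; adjusted permutation p = 0.0355 and 0.0713). With unique exon reads Adm had r = -0.884 with Egln1, -0.778 with Ndrg1 and 0.885 with Slc2a3. With total gene reads the values were -0.716 (adjusted permutation p = 0.0703), -0.796 and 0.889. Centred on sex, none of the 3 pairs passed (adjusted permutation p = 0.0676, 0.0775 and 0.0775).

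The other negative pairs involved Car9, of whose gene reads 67.0% lay in introns. Car9 had 1.71, 1.31, 2.59, 2.58 and 2.49 CPM in female libraries, against 2.53, 1.85, 2.43, 2.0 and 2.72 CPM in male libraries. Slc2a1 and Car9 had r = -0.907 and rho = -0.673 (adjusted permutation p = 0.0226 and 0.113), and r = -0.607 without female replicates 1 and 2. Pfkl and Car9 had r = -0.805 and rho = -0.818 (-0.762 without 2; adjusted permutation p = 0.0443 and 0.0491). With unique exon reads these pairs had r = -0.257 and -0.398 (adjusted permutation p = 0.543 and 0.334). Slc2a1 itself had 221 CPM in female replicate 2, against 119.8 to 168 CPM in the other libraries, and 49.5% of its reads there lay in introns.

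Variation between libraries of a sex was uneven among the genes. The within-sex SD of log2 CPM was 0.38 for Slc16a3, 0.37 for Pdk1, 0.35 for Bnip3 and 0.34 for Ndrg1, above that of 98.1, 97.9, 97.4 and 97% of genes with at least 10 CPM. Pfkp, Hk1 and Gpi1 varied little, at 0.08, 0.09 and 0.09, above 24.0, 26.1 and 26.7% of those genes. The highest library exceeded the lowest 2.22-fold for Slc16a3 and 1.17-fold for Gpi1.

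Library measures were set beside Pdk1 in 9 relations over the 10 libraries. The summed level of the fibroblast markers ran from 22448 to 29774 CPM in female libraries and from 23057 to 28849.8 CPM in male libraries, and correlated with Pdk1 at r = 0.837 and rho = 0.855 (0.797 without 2 libraries; adjusted permutation p = 0.0162 and 0.0261). The summed level of the 4 endothelial markers, 19.3 to 32.2 CPM in female libraries and 20.7 to 43.3 CPM in male libraries, correlated at r = -0.802 and rho = -0.673 (-0.613 without 2 libraries; adjusted permutation p = 0.0162 and 0.169). Most of the endothelial sum came from Kdr, and most of the fibroblast sum from Fn1, Col1a1, Vim and Col1a2. None of the endothelial markers was at 0 on average: Pecam1 had 2.22 and 2.11 CPM, Cdh5 0.731 and 0.591 CPM, Tek 2.73 and 2.61 CPM and Kdr 21.9 and 28.2 CPM in female and male libraries. The depth of the libraries correlated at r = -0.104 (adjusted permutation p = 0.773), and the remaining 6 measures did not pass. The part of these measures in the covariation was not tested. In bulk RNA, fewer cells of a type and less RNA per cell cannot be told apart.

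Between the sexes, no member passed the test. edgeR's quasi-likelihood test with Benjamini-Hochberg adjustment called 15 of 16602 genes (0.0904%), 7 higher and 8 lower in female libraries, and 0 of the 35 members. At an unadjusted edgeR p under 0.05 there were 2 members, Ankrd37 and Slc2a3, both lower in female libraries (5.71% of members), of 922 genes (5.55%); 3.5% of tested genes passed this and were lower in female libraries. The members' log2 fold changes, female minus male, ran from -0.89 to 0.22 with a median of -0.01, against a median of 0.00 over all tested genes; 16 were positive and 19 negative. By role the range was -0.12 to 0.12 for glycolytic enzymes, -0.28 to 0.20 for transporters, at most 0.07 in size for flux control and -0.15 to 0.09 for oxygen sensing. Pgk1 is listed here as the single member on the X chromosome. It had 156 ± 13.3 CPM in female libraries and 160.3 ± 7.96 CPM in male libraries (log2 fold change -0.04 ± 0.06 SE, edgeR adjusted p = 0.999).

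Ankrd37, an ankyrin repeat gene known as a HIF target, had 0.758, 0.487, 0.652, 0.645 and 0.759 CPM in female libraries, against 1.14, 0.977, 1.60, 1.07 and 1.37 CPM in male libraries. Every female library lay below every male library; among tested genes 162 (0.976%) had sexes that did not overlap, and Ankrd37 was the 1 member among them. Its log2 fold change was -0.89 ± 0.21 SE (edgeR adjusted p = 0.324), and its level in female libraries was 0.538 times that in male libraries. DESeq2 gave an adjusted p of 0.0460 and called 70 genes (0.422%), with Ankrd37 the 1 member. The authors' deposited table gives Ankrd37 a signed fold of -1.78 and an FDR of 0.0431, and an FDR of 1.0 for the other 34 members. The difference rests on 352 unique gene reads over the 10 libraries, 29.9% of gene reads lay in introns, and 26.4% of its exonic bases are shared with genes on the opposite strand, Lrp2bp and Ufsp2. With unique exon reads its log2 fold change was -0.78 (edgeR adjusted p = 0.556) and 0 members had sexes that did not overlap.

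**Figure D4:**
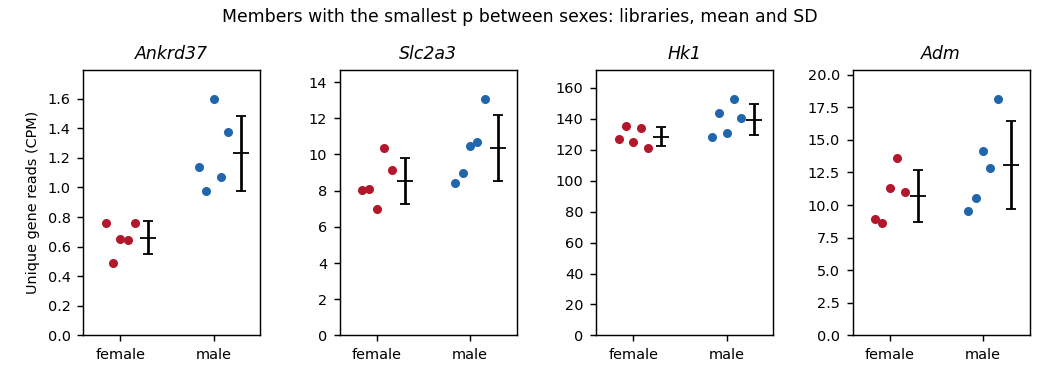
Unique gene reads in CPM for the 4 members with the smallest p between the sexes, with 1 point a library (replicates 1 to 5 from left to right), the mean and the SD. In Ankrd37 the female libraries lie at 0.487 to 0.759 CPM, all below the male libraries, whereas Slc2a3, Hk1 and Adm overlap.

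The next 3 members overlapped between the sexes. Slc2a3 had 8.02, 8.11, 6.98, 10.4 and 9.17 CPM in female libraries, against 8.44, 9.0, 10.5, 10.7 and 13.1 CPM in male libraries (log2 fold change -0.28 ± 0.13 SE, edgeR adjusted p = 0.894). Hk1 had 127, 135, 125, 134 and 121 CPM in female libraries, against 128, 144, 131, 153 and 140.4 CPM in male libraries (-0.12 ± 0.06 SE, edgeR adjusted p = 0.913). Adm, whose values stand above, had a log2 fold change of -0.29 ± 0.17 SE (edgeR adjusted p = 0.987).

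Several of the most abundant enzymes kept only a minor share of their reads as unique. Over the 10 libraries the unique share of gene reads was 26.1% for Eno1, 28.1% for Adm, 29.7% for Gapdh, 34.4% for Pgk1 and 37.9% for Pgam1. Bnip3 (43.4%) was the sixth below 50%, so that 6 of 35 members (17.1%) were below, against 7.04% of tested genes. The median was 97.3% for members and 98.7% for tested genes, and 18 members had at least 95%. The share was stable between libraries: Eno1 ran from 25.2 to 26.8% and Gapdh from 28.2 to 31.1%.

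Pseudogenes, copies of a gene that make no functional protein, were counted by matching 13607 GENCODE M21 pseudogene transcripts to the members' transcripts at 80% identity over at least 50% of the pseudogene. Gapdh had 340 of the 434 assigned, Ldha 29, Pkm 14, Eno1 12, Aldoa 11, Pgk1 and Tpi1 7 each, Pgam1 5 and Bnip3 4, and 22 members had 0. The pseudogenes of Gapdh had 25204 total gene reads over the 10 libraries, which is 18.6% of the 135554 of Gapdh itself. For the pseudogenes of Eno1 the share was 0.0923%, with 543 reads against 588427. Across the 35 genes, which are not independent replicates, Spearman's rho between the number of pseudogenes and the unique share was -0.58, as a description.

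The number of pseudogenes and the unique share did not always go together. Ldha, with 29, kept 86.0% of its reads as unique, and Pgk1, with 7, kept 34.4%. The median identity of the pseudogenes to the member was 96.3% for Pgk1 and 88.8% for Ldha. Identity and unique share did not always go together either: it was 90.0% for Eno1 and 89.7% for Pkm, which kept 26.1 and 75.2%. Adm had 0 pseudogenes by this rule and no exonic base shared with another gene, yet kept 28.1%. Hif1a (53.6%), Ndrg1 (58.7%) and Slc2a1 (70.7%) also had 0 pseudogenes. Unlike Adm, they shared 8.11, 8.43 and 2.99% of their exonic bases with other annotated genes. Sharing of exonic bases did not always go with a low unique share. Pfkm shared 10.7% and Pfkp 5.58%, also with 0 pseudogenes, yet they kept 98.99 and 99.01% of their reads as unique. What the other reads of Adm, Hif1a, Ndrg1 and Slc2a1 match was not tested.

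**Figure D5:**
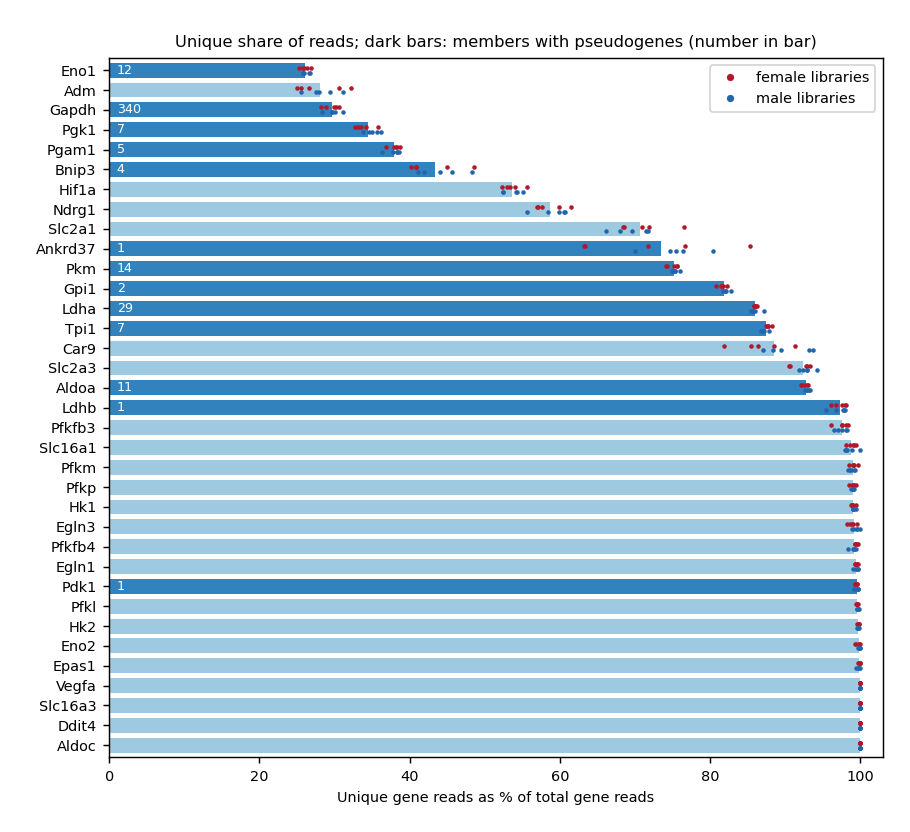
Unique gene reads as a percentage of total gene reads for the 35 genes, pooled over 10 libraries (bars) and in each library (points, female red, male blue). Dark bars mark the 13 members with pseudogenes, with their number in white; Adm, at 28.1%, is a pale bar among the 5 lowest.

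Intron reads were few in most members. They made up a median of 9.31% of the members' gene reads, against 23.4% over tested genes, and 6 members (17.1%) had at least 25%, against 47.8% of tested genes. The 6 were Car9 (67.0%), Pfkfb4 (47.7%), Slc2a1 (37.2%), Ankrd37 (29.9%), Slc2a3 (29.8%) and Pfkfb3 (27.7%). The most abundant enzymes had little: 0.662% in Aldoa, 1.26% in Eno1 and 5.16% in Pkm.

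The wider pathway was read from 77 further genes in 4 lists: other glycolytic isozymes, other genes of glucose and lactate transport and control, other HIF regulators and other HIF targets. Of these 70 were tested, edgeR called 0, and 5 (7.14%, against 5.55% of all tested genes) had an unadjusted edgeR p under 0.05, all lower in female libraries. Their median log2 fold change was -0.02. Car12, a carbonic anhydrase of the cell surface, had 2.87 ± 0.249 CPM in female libraries and 4.49 ± 1.09 CPM in male libraries (log2 fold change -0.64 ± 0.16 SE, edgeR adjusted p = 0.384). Angptl4, an inhibitor of lipoprotein lipase, had 4.51 ± 0.647 and 6.02 ± 0.990 CPM (-0.41 ± 0.14 SE, edgeR adjusted p = 0.647). The others were Tmem45a (-0.47 ± 0.18 SE, edgeR adjusted p = 0.769), Pdp1, a phosphatase that activates pyruvate dehydrogenase (-0.26 ± 0.11 SE, 0.845), and Arnt2, a partner of the HIF alpha subunits (-0.17 ± 0.08 SE, 0.864).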

How the data were processed

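Reads were deposited as counts per gene and library, on build mm10 per the submitters' processing notes; the aligner is not given in the sources used here. Per the file headers, the authors' table holds unique and total gene counts, exon, intron and junction counts, exon lengths, and their own test columns (p-value, FDR p-value and a signed fold, kept here as a score). Another 70 per-library value columns were not used. The members and lists were chosen with earlier results of these data known. Unique gene counts were scaled by TMM and tested with edgeR 4.0.16 (robust quasi-likelihood, filterByExpr with a minimum count of 10, R 4.3.3), which was checked on simulated data; DESeq2 1.42.0 was an alternative. Log2 fold changes, female minus male, are given with standard errors (SE) for members with an unadjusted p under 0.05, or for the 4 with the smallest p. The pairs named are the 6 with the largest absolute r among those past the threshold, and 5 more that were named after their values were seen. In the pairs, 2 libraries farthest from the median of the gene on the x axis were left out. No libraries of a sex agreed within sampling noise. Promoters come from RefSeq GRCm38.p6, pseudogenes and exons from GENCODE M21.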

Additional observations from a re-analysis of the deposited data

Results flagged for a closer look

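Eno1, the leading enolase, had 353 CPM of unique gene reads in female replicate 3, against 415 to 424 CPM in the other 4 female libraries. The gap to the nearest library was 0.878 of the range of the group, above the critical value of 0.710 for 5 libraries. It was the 1 such case among 98 groups examined, where chance gives about 1 in 20. In total exon reads per kilobase the same library had 216, against 239 to 249 in the other female libraries. In male libraries Eno1 ran from 373 to 460.1 CPM.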

How the results depend on the processing

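Genes called by edgeR numbered 15, 7 higher and 8 lower in female libraries. The count was 30 with no low-count filter (22 lower) and 70 with DESeq2 (11 higher, 59 lower). Leaving out each library in turn gave 12 to 36 genes, 6 to 16 higher and 6 to 20 lower. Members called stayed at 0 in each of these runs, except for 1 with DESeq2 (Ankrd37). The stricter filter of 1 CPM in 5 libraries removed Ankrd37 from the test. Members whose sexes did not overlap numbered 1, and 0 with unique exon reads.

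The labels do not say whether equal replicate numbers pair the samples, and the main fit was not blocked on them. In their deviations from the mean of their sex, same-numbered female and male libraries correlated at 0.0413 to 0.218, all positive. For female replicates 1, 3 and 5 the closest male library had the same number, and for replicates 2 and 4 it had another. Replicates 3 and 5 of each sex were also the lowest libraries in Pdk1 and Ddit4. Whether equal numbers mark a shared batch was not tested. With the replicate block edgeR called 43 genes, 35 of them lower in female libraries, and 0 members.

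The median r of HIF target pairs was 0.44, and 0.50 with unique exon reads; leaving out each library gave 0.39 to 0.50. The pairs called numbered 21, and 34 with total gene reads, 52 with unique exon reads and 8 centred on sex; leaving out each library gave 0 to 34. The cause was not tested. Depth limits Ankrd37 most, at 479 total gene reads in all.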
